A study of Mus musculus with 42 samples.

Results

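Deep crypt secretory and Paneth-like gene expression was followed through 7 genes, Mptx1, Mptx2, Lyz1, Ang4, Itln1, Reg4 and Kit, taken by name from 12 RNA sequencing tables of the mouse colon that together named 19227 genes. The 42 libraries came from Muc2-mCherry+ goblet cells, Gli1-tdTomato+ stromal cells and wild type colonic organoids. The genes were chosen by name with the fall of Mptx1 in the proximal GA3M2 goblet cells already known, so the values of that comparison are given as a description and nothing is read from them.

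All sorted cells came from adult mice carrying Gli1-CreERT2, a tamoxifen-inducible Cre driven in Gli1+ stromal cells, and all these mice, controls included, received tamoxifen and were sampled at day 30. Goblet cells were sorted from GWTM2 controls (Gli1-CreERT2 with Muc2-mCherry), from GS4M2 mice (the same with Smad4 fl/fl) and from GA3M2 mice (the same with Alk3 fl/fl), proximal and distal colon separately, with 2 libraries in each group. Stromal cells came from the matching GWTT, GS4T and GA3T mice, which carry Rosa26-tdTomato in place of Muc2-mCherry, again with 2 libraries a group and segment. The goblet cells compared here were thus not the target of the deletion. Organoids were grown from the distal colon of wild type mice in a medium with EGF, Noggin, R-spondin1, Wnt3a and CHIR, and received 10 nM IL-1a with IL-1b (IL1) or 10 nM IL-17a (IL17A) for 12 or 72 h, with 3 libraries a group. Whether a library is 1 mouse or several is not labelled, so p-values measure the spread between these libraries, which may in part be technical.

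Deep crypt secretory cells are Reg4+ Kit+ goblet-type cells that sit between the stem cells at the base of the colonic crypt and supply them with Notch and EGF receptor ligands, a place that Paneth cells hold in the small intestine. Kit is the receptor tyrosine kinase for stem cell factor, and Reg4 is a secreted C-type lectin. Ang4 is a microbicidal ribonuclease, Lyz1 is the lysozyme of Paneth cells, and Itln1 is a lectin that binds microbial sugars. Mptx1 and Mptx2 are mucosal pentraxins, secreted proteins of the pentraxin family.

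Mptx1 (ENSMUSG00000026531) lies at chr1:174330518-174332873 on the plus strand, and Mptx2 (ENSMUSG00000079180) at chr1:173274382-173277777 on the minus strand of GRCm38. Their longest transcripts were identical at 92.4% of 794 aligned bases, with a longest shared run of 112 bases. The authors mapped reads uniquely, so that reads fitting both genes would be left out, and how many these are is not shown by the values. Ang4 (ENSMUSG00000060615, chr14:51763878-51773590, minus strand) shared 90.2% of 686 aligned bases with Ang5, and Lyz1 (ENSMUSG00000069515, chr10:117287797-117292868, minus strand) shared 96.0% of 1262 with the macrophage lysozyme Lyz2. Itln1 (ENSMUSG00000038209, chr1:171518122-171535294, minus strand), Reg4 (ENSMUSG00000027876, chr3:98222156-98236748, plus strand) and Kit (ENSMUSG00000005672, chr5:75574916-75656722, plus strand) are the other members. All 7 are annotated as protein coding.

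The 150 bases before the RefSeq start (GRCm38.p6) of 4 members, Mptx1, Mptx2, Reg4 and Ang4, are shown because 3 of them share an extended TATA element. Capitals mark TATAAGAGCT, TATAAA or TATATA on either strand, and each sequence runs 5′ to 3′ towards the start.
Mptx1 (chr1:174330368-174330517, plus strand): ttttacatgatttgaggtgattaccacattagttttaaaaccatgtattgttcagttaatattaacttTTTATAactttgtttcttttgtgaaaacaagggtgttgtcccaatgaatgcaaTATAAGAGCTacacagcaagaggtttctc
Mptx2 (chr1:173277757-173277906, minus strand): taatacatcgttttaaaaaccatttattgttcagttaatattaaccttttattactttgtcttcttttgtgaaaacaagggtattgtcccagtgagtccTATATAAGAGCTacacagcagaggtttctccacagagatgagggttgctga
Reg4 (chr3:98222006-98222155, plus strand): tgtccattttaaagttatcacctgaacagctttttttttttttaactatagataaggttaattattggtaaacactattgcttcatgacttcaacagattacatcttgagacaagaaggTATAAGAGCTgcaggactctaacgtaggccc
Ang4 (chr14:51773591-51773740, minus strand): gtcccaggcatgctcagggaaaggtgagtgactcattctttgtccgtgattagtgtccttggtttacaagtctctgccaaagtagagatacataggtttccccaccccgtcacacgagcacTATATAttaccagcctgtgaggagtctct
The string TATAAGAGCT began 29 bases before the start in Mptx1, 49 before in Mptx2 and 31 before in Reg4, on the strand of the gene. For Mptx2 the RefSeq start lies inside the gene as placed above, which runs to 173277777. The last bases printed for Mptx2 thus belong to that gene, and the string lies nearer to its start there than 49 bases. Over the 250 bases before each of 32851 RefSeq promoters, 15 promoters (0.0457%) held it on either strand. It was picked after the members' sequences were read, and its rarity is a description. Ang4 held TATATA 29 bases before the start, a string found in 5.25% of promoters. In Mptx2 a TATATA overlapped the longer string. TATAAG, which is part of that string, was in 6.65% of promoters and TATAAA in 12.4%. Lyz1, Itln1 and Kit held none of these strings in the 150 bases before the start. The E-box CAGCTG, in 13.0% of all promoters, was in no member's 250 bases, and the Tcf string CTTTGA, in 13.8%, was in that of Mptx1 only. The upstream stretches of Mptx1 and Mptx2 were identical at 86.4% of 228 aligned bases.

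Libraries held 14221322 to 23686940 reads on named genes. Not every table listed every member: Ang4, Reg4 and Kit had a row in all 12, Mptx1 and Lyz1 in 10, Itln1 in the 8 tables of goblet cells and organoids, and Mptx2 only in the 2 of distal stromal cells. Several libraries stood apart in ways that touch the results. Xist and Y-linked reads put 2 of the 12 goblet cell libraries (GWTM2 replicate 1 of each segment), 9 of the 12 stromal libraries and 7 of the 16 different organoid libraries as female. The same GWTM2 or GWTT libraries served as controls for both knockouts, so the comparisons with the 2 knockouts are not independent. In the organoids, control 12 h replicates 2 and 4 held the same reads as control 72 h replicates 1 and 4, which leaves 4 different control libraries. Control 72 h replicates 2 and 4 were much alike. The chi-square per gene of their reads, higher for less alike libraries, was 3.44, against 68.2 and 73.0 with replicate 1. Replicates 3 and 4 were as close after 12 h of IL1 (3.12) and IL17A (3.46). All entered the fits separately, so such a group of 3 may hold fewer independent sources. The names of the GS4M2 and GWTM2 columns in the proximal table were kept as deposited because the reads of the GWTM2 columns equal those in the GA3M2 table; a published listing heads them the other way round, which would turn every proximal GS4M2 direction.

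The sorted goblet cells expressed the deep crypt genes and few Paneth cell products. The sum of 8 stromal markers stayed at or below 29.8 RPM (reads scaled to a library of 1000000) in every goblet cell library, against 9444 to 14868 for 8 epithelial markers. Of 22 Paneth cell products, 5 had a row in the proximal goblet cell tables and 5 or 7 in the distal ones. Lyz1, the defining Paneth cell gene, had no row in proximal goblet cells and reached at most 4.84 RPM in distal ones. The label Paneth-like therefore rests on Mptx1, Ang4 and Itln1 here and not on Lyz1.

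In GWTM2 controls, Mptx1 stood at 62.9 and 46.4 RPM in proximal goblet cells and at 1603 and 6497 in distal ones, the widest difference between segments among the members. Reg4 was also higher distally, with 505 and 844 against 212 and 244 RPM. Kit ran the other way, with 302 and 472 proximally against 178 and 299 distally, close to the spread between replicates. Ang4 overlapped between segments, at 185 and 393 proximally and 155 and 949 distally, and so did Itln1, at 12.6 and 18 proximally and 6.18 and 56.0 distally. The segments lie in separately scaled tables, so these differences were not tested.

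Per kilobase of transcript, the order in distal GWTM2 cells was Mptx1 (5069 ± 4331 RPKM, that is RPM per kilobase, SD, n = 2), Ang4 (779 ± 792), Reg4 (661 ± 235), Itln1 (27.3 ± 30.9), Kit (26.7 ± 9.58) and Lyz1 (0.179 ± 0.254). Ang4 and Reg4 did not differ beyond their spread, nor did Itln1 and Kit. Mptx1 ranked 10 and 2 among the 14087 genes ranked in the 2 distal control libraries. In proximal cells the order was Ang4 (408 ± 207), Reg4 (223 ± 22.4), Mptx1 (68.4 ± 14.6), Kit (43.4 ± 13.5) and Itln1 (13.4 ± 3.34). The 2 distal controls differed widely: replicate 2 held 9.07 times the Itln1 level of replicate 1 and 6.13 times its Ang4 level. Replicate 1 was the female library of the pair, and the part of sex or mouse of origin in this was not tested.

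**Figure D1:**
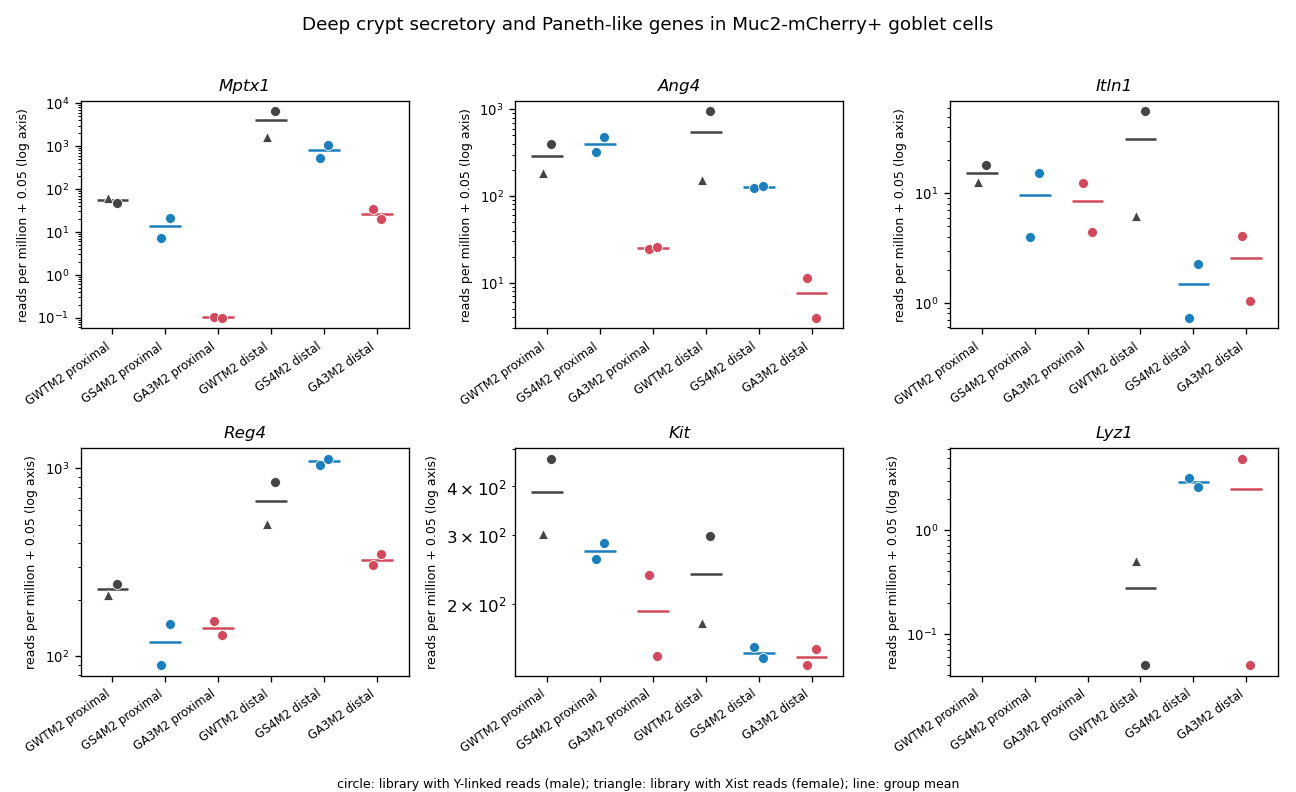
RPM plus 0.05 on a log axis for 6 genes in Muc2-mCherry+ goblet cells of GWTM2, GS4M2 and GA3M2 mice, proximal and distal; each point is a library, circles male, triangles female, and lines are group means. Mptx1 and Ang4 were lowest in GA3M2 cells of both segments, and Lyz1 is shown for distal cells only because the proximal tables did not list it.

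Goblet cells of GA3M2 mice, with the BMP receptor Alk3 deleted in Gli1+ stromal cells, had almost no Mptx1 in the proximal colon. Its normalised counts (reads divided by the size factor of the library) were 1140 and 841 in the controls and 1.01 and 0.922 in GA3M2 cells, which was 1 read in each knockout library. Both are under the floor of 3 reads, so the size of the fall is not given as a fold. Ang4 stood at 3360 and 7125 in controls and 445 and 496 in the knockout, a change of -3.38 on the log2 scale. All 5 members tested were lower in both knockout libraries than in both controls: Reg4 by -0.64 on the log2 scale (3835 and 4420 against 2800 and 2503), Kit by -0.97 (5464 and 8550 against 4317 and 2814) and Itln1 by -0.97 (228 and 325 against 227 and 83.9). For Itln1 the lowest control and the highest knockout library differed by about 1 normalised count, so that the separation is slight. Groups were separated in this direction for 26.1% of all 13344 genes tested. By the rule for a call (adjusted p under 0.05 in limma and a fold of at least 2), 1 of the 5 members was called, with 0.0899% of all genes called, and nothing is read from either figure because this comparison shaped the choice of members.

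The distal GA3M2 cells, a measurement from other libraries, gave the same direction with larger scatter in the controls. Mptx1 stood at 27159 and 113489 normalised counts in controls and at 574 and 327 in the knockout, with a log2 fold change of -7.00 ± 0.68 (SE), without passing the limma test (adjusted p = 0.121). Ang4 was at 2624 and 16580 in controls and 193 and 63.3 in GA3M2 cells (-5.89 ± 0.94, limma adjusted p = 0.262). Both knockout libraries were below both controls for each gene. Itln1 (105 and 979 against 69.5 and 16.3), Reg4 (8557 and 14750 against 5239 and 5711) and Kit (3014 and 5216 against 2388 and 2493) were lower as well, with log2 fold changes of -3.20, -1.04 and -0.70 and limma adjusted p of 0.411, 0.326 and 0.420.

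Thus 5 of the 6 members tested lay below the controls without overlap, beside 22.2% of all genes tested, and none was called, as was the case for every one of the 13080 genes (0%; 539 genes, 4.12%, at an unadjusted p under 0.05 and a fold of at least 2, among them Mptx1, Ang4, Itln1 and Reg4; 0 by edgeR). By DESeq2 on the whole reads recovered from the values, 3 members were called in distal GA3M2 cells, Mptx1 (-7.29, adjusted p = 5.94e-11), Ang4 (-6.24, adjusted p = 0.000188) and Reg4 (-1.09, adjusted p = 0.0153), beside 1.83% of all genes. The limma estimates depended on single controls: with GWTM2 distal replicate 2 left out, the log2 fold changes of Mptx1 and Ang4 were -5.97 and -4.56. In a fit without 1 control, the lone control left is assumed to vary like the other groups, so no call is read from it. Lyz1 was at 7.68 and 0 in controls and 83.2 and 0 in GA3M2 cells, so 1 library alone held it.

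Other genes differed in the same libraries. Muc2, the gene behind the sort, was at 179572 and 224217 in proximal controls and 18753 and 14042 in GA3M2 cells, and the summed goblet cell products were at 18258 to 31380 RPM in GA3M2 against 39367 to 69241 in GWTM2 libraries. The macrophage gene Lyz2 was listed at 0 in both proximal controls and at 305 and 495 in proximal GA3M2 cells, and the sum of 12 macrophage markers ran from 187 to 282 RPM in GA3M2 libraries against 87 to 222 in controls. The stromal markers were low throughout, but their sum was 8.05 to 29.8 RPM in proximal GA3M2 against 2.12 to 2.71 in proximal GWTM2 libraries. All 5 tested there were higher (median 4.25 on the log2 scale, none called by limma and 4 by DESeq2). At such low control levels, markers may have passed the filter only through the GA3M2 libraries. Nothing is read from the direction or the calls of these 5. Of 11 antimicrobial products tested in the same table, 9 were higher (median 2.22, none called by limma and 4 by DESeq2). Fewer cells of a kind and less RNA per cell cannot be told apart in these bulk libraries, and the part of a changed cell mixture in the lower Mptx1 and Ang4 was not tested.

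In GS4M2 mice, with Smad4 deleted in Gli1+ stromal cells, Mptx1 and Reg4 were lower in proximal goblet cells and Ang4 was not. Mptx1 was at 1070 and 796 normalised counts in controls and 118 and 350 in the knockout, with a log2 fold change of -2.18 ± 0.48 (limma adjusted p = 0.126). Reg4 was at 3602 and 4181 against 1473 and 2509 (-1.01 ± 0.25, limma adjusted p = 0.143), and Kit at 5132 and 8087 against 4281 and 4846 (-0.50 ± 0.22, limma adjusted p = 0.318). These 3 of 5 members did not overlap between groups, beside 25.2% of all genes, and none was called, beside 0.325% of all 13238 genes (an unadjusted p under 0.05 with a fold of at least 2 held for Mptx1 and Reg4, beside 4.28% of all genes, and edgeR and DESeq2 called no member, beside 0.385% and 2.04%). Ang4 lay at 3156 and 6740 in controls and 5230 and 7993 in GS4M2 cells, and Itln1 at 214 and 308 against 64.1 and 256, both with overlap. Without GS4M2 proximal replicate 2, which leaves 1 knockout library, the log2 fold changes were -2.96 for Mptx1 and -1.40 for Reg4. Both were called by limma with the replicate number as a block. These numbers do not pair the libraries by the labels, and deviations of same-numbered libraries correlated at -0.0015 here. The share of all genes called in that fit was not counted, so nothing is read from these calls.

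In distal GS4M2 cells the members parted. Mptx1 was at 28389 and 117577 in controls and 9112 and 18793 in GS4M2 cells (-2.14 ± 0.73, limma adjusted p = 0.451), Ang4 at 2742 and 17178 against 2072 and 2249 (-1.67 ± 0.84, adjusted p = 0.522), and Itln1 at 109 and 1014 against 11.4 and 38.6 (-3.92 ± 1.16, adjusted p = 0.422). Kit was at 3151 and 5404 against 2600 and 2521 (-0.69 ± 0.26, adjusted p = 0.468). Reg4 ran the other way, at 8945 and 15282 in controls and 17636 and 19673 in GS4M2 cells (0.67 ± 0.27, adjusted p = 0.474), and Lyz1 was at 8.03 and 0 against 53.1 and 44.1 (4.04 ± 1.11, adjusted p = 0.403). Thus 4 of 6 members lay below their controls without overlap and 2 above, beside 22.6% and 23.1% of all genes, and limma called no member and none of the 13070 genes (0%; 353 genes, 2.7%, at an unadjusted p under 0.05 and a fold of at least 2, among them Mptx1, Itln1 and Lyz1; 0 by edgeR and 147, or 1.12%, with no member among them, by DESeq2). With GWTM2 distal replicate 1 left out, the log2 fold changes were -3.17 for Mptx1, -2.99 for Ang4, -5.52 for Itln1 and -1.08 for Kit. With replicate 2 left out, that of Reg4 was 1.06. Each of these fits holds a lone control, so no call is read from them. For Lyz1 the control left without replicate 1 is at 0. The Lyz1 control mean of 4.01 lay under the filter on low values, which Lyz1 passed only through the GS4M2 libraries (mean 48.6). A rise was thus built into its being tested. Nothing is read from its p-values or from its place among the 2 members above the controls.

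**Figure D2:**
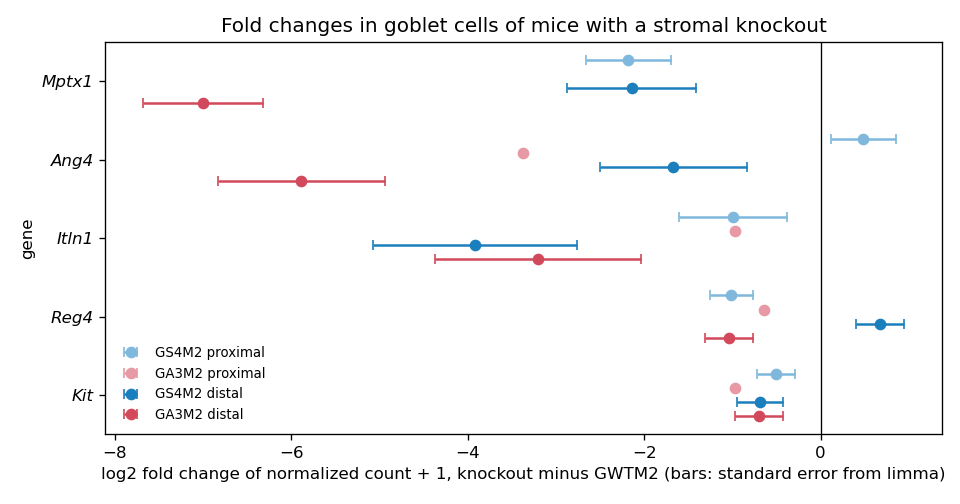
Log2 fold change of the normalised count plus 1 for 5 genes in goblet cells of mice with a stromal knockout against GWTM2, 1 point for each knockout and segment with bars for the standard error from limma; the proximal GA3M2 points have no bars, and that of Mptx1, with 1 read in each knockout library, is left out. Mptx1 ran from -7.00 in distal GA3M2 to -2.14 in distal GS4M2 cells, while Reg4 was above 0 in distal GS4M2 cells.

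The direction of Reg4 differed between the segments of GS4M2 mice, where both proximal knockout libraries lay below and both distal ones above their controls. The difference of the 2 fold changes, proximal minus distal, was -1.68 ± 0.43 on the log2 scale, with an adjusted p = 0.564 in limma. No member was called for a difference between segments in either knockout or cell type, beside 0% of all genes in both goblet cell fits, 0.189% for GS4T and 0% for GA3T. At an unadjusted p under 0.05 and a fold of at least 2, 4 members passed over the 4 fits, beside 2.36% and 1.01% of all genes for GS4M2 and GA3M2 and 5.21% and 3.18% for GS4T and GA3T, and edgeR called no member, beside 0% of all genes in 3 fits and 0.00653% for GS4T.

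Other genes of the deep crypt niche were not called in goblet cells. Of 12 deep crypt secretory and niche factors, 10 were tested in each goblet cell table and none was called by limma or DESeq2 in any of them, with medians of -0.14 and -0.23 on the log2 scale for proximal and distal GS4M2 cells and -0.06 and 0.11 for GA3M2 cells, beside a median of all genes within 0.01 of 0. Their summed level was nonetheless 4643 to 5560 RPM in proximal GA3M2 against 6955 to 7623 in proximal GWTM2 libraries, without overlap, and 5301 to 7126 in proximal GS4M2 libraries. Of the Paneth cell products, 5 were tested in each proximal table, with medians of -0.40 for GS4M2 and -0.87 for GA3M2, then 5 in the distal GS4M2 table (-0.27) and 6 in that of distal GA3M2 cells (0.10). Limma called none, and DESeq2 called 1 lower in each proximal table and none in the distal ones. Their sum was 625 to 705 RPM in proximal GWTM2, 479 to 505 in GS4M2 and 440 to 447 in GA3M2 libraries, lower in both knockouts without overlap. Clps, a colipase, was at a mean of 759 in proximal controls and 221 in GS4M2 cells (-1.74, limma adjusted p = 0.0533). The matrilysin Mmp7, which processes defensins in Paneth cells, was at 413 and 21.7 in proximal controls and 1932 and 1356 in GA3M2 cells.

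Among 12 secretory lineage transcription factors, Bhlha15, a factor of secretory granule formation, was the only one called by limma in a goblet cell table. It rose in proximal GS4M2 cells from 27.5 and 20.5 to 280 and 234 (3.38 ± 0.27, adjusted p = 0.0177). Of 16 goblet cell products, Muc2 was the only one called by limma, in proximal GA3M2 cells, while DESeq2 called 3 lower and 1 higher there, 4 lower in distal GA3M2 cells and 1 higher in distal GS4M2 cells. In GS4M2 mice Muc2 lay above the controls in both segments (168657 and 212088 against 401714 and 356310 proximally). Mptx1 was lower in both knockouts, whereas Muc2 lay below the controls in 1 and above them in the other.

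Stromal cells held traces of the members, and epithelial and macrophage markers in these sorts moved with the genotype. Smad4 itself stood at 1604 to 1781 normalised counts in GWTT and 680 to 1171 in GS4T stromal libraries, and Bmpr1a, which encodes Alk3, at 2960 to 3485 in GWTT and 1842 to 2203 in GA3T libraries, each without overlap. The reads of both genes stayed well above 0, and which of them lie in the deleted exons is not known from gene counts. The sum of 8 epithelial markers was 15.8 to 536 RPM in proximal GWTT libraries and 58.7 to 186 in distal ones. It was 1283 to 1687 and 724 to 1457 in the matching GS4T libraries and 527 to 850 and 459 to 1073 in GA3T libraries. Those sums were at most 1687 RPM, against at least 9444 in goblet cells. The sum of 12 macrophage markers was 234 to 366 RPM in proximal and 731 to 853 in distal GWTT libraries, 1151 to 2008 and 1481 to 2640 in GS4T, and 945 to 1687 and 937 to 1278 in GA3T libraries, and in GS4T cells 10 of the 12 were called higher proximally and 8 distally. The part of these cells in the members' values was not tested. Summed mast cell markers, which are of interest because mast cells express Kit, stayed at or below 24.4 RPM in the sorted cells. Kit itself was at only 5.01 to 14.3 RPM in the stromal libraries. Of 2 mast cell markers tested, 1 was called higher in GS4T cells of each segment. Of 6 markers of interstitial cells of Cajal, 2 were higher and 4 lower in proximal GS4T cells (1 called higher), and 3 and 3 in distal ones (2 called higher). The part of either cell type in the Kit values was not tested.

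In distal GS4T stromal cells, Mptx2 and Ang4 fell while epithelial and macrophage markers rose. Mptx2 had 35.2 and 17.4 normalised counts in GWTT controls and 0 in both GS4T libraries (limma adjusted p = 0.0180). It passed the filter on low values only through the controls, so that a difference was built into its being tested. With 54 control reads and none in GS4T, it was at least 17.0-fold lower, taking 3 reads over the group as the floor. Ang4 was at 68.5 and 122 in controls and 7.97 and 3.52 in GS4T cells (-3.86 ± 0.61, adjusted p = 0.0100). Both calls were among 4 members tested, and 13.9% of all 15258 genes were called, 6.08% as lower. A fall was built into the testing of both genes, so nothing is read from these p-values or calls. Of the 8 epithelial markers, 7 were called higher, in the same comparison, from 2.88 (Vil1) to 4.18 (Krt18) on the log2 scale, as were 12 of 14 tested antimicrobial products, among them Lcn2 (7.27) and S100a8 (6.95).

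Without GWTT distal replicate 1, Mptx2 was no longer called (adjusted p = 0.0839), and without replicate 2 neither was (adjusted p = 0.0567 for Mptx2 and 0.0784 for Ang4). Mptx1 was under the filter on low values there, with 13.7 and 13.6 in controls and 0 and 3.52 in GS4T cells. Reg4 was at 46.9 and 101 against 130 and 112 (0.80 ± 0.42, adjusted p = 0.222), above its controls like the epithelial markers. Kit overlapped, at 82.1 and 158 against 103 and 164, and Lyz1 stayed below the filter at 5.31 to 9.78.

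Distal GA3T cells gave lower values of the pentraxins in 1 library more than in the other. Mptx2 was at 40.2 and 19.8 in controls and 12.0 and 0 in GA3T cells (-3.02 ± 1.36, limma adjusted p = 0.313), and Mptx1 at 15.6 and 15.4 against 10.5 and 0 (-2.28 ± 1.33, adjusted p = 0.412). With GA3T means of 6.01 and 5.26, both pentraxins passed the filter of 10 only through the controls. A fall was thus built into their being tested, and nothing is read from these p-values. The 2 pentraxins, of 6 members tested, did not overlap, beside 26.8% of all genes. None was called, beside 0% of 15414 genes (7.77% at an unadjusted p under 0.05 and a fold of at least 2, and 0 by edgeR and 5.03% by DESeq2, with no member among them). Ang4 (78.1 and 139 against 223 and 24.5), Reg4 (53.5 and 115 against 455 and 74.4), Kit (93.7 and 180 against 154 and 200) and Lyz1 (11.2 and 6.61 against 20.3 and 9.57) overlapped. The same GA3T library, the male replicate 1, was the higher one for Ang4, Reg4 and both pentraxins and had the larger epithelial sum.

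In proximal stromal cells, Reg4 was near the floor in controls and higher in both knockouts. It was at 0 and 15.4 in GWTT and 40.6 and 65.8 in GS4T cells (3.70 ± 1.39, limma adjusted p = 0.134), and at 0 and 16.2 against 57.1 and 100 in the GA3T table (4.21 ± 1.43, adjusted p = 0.198). Kit was at 255 and 199 in controls and 126 and 119 in GA3T cells (-0.87 ± 0.24, adjusted p = 0.147) and overlapped in GS4T cells. None of the 3 members tested in each table was called, beside 9.6% of all genes for GS4T and 0.358% for GA3T. Reg4 passed in both at an unadjusted p under 0.05 and a fold of at least 2, beside 16% and 9.46%. Its control means of 7.69 and 8.08 lay under the filter of 10, which it passed only through the knockout libraries. A rise was thus built into its being tested, and nothing is read from these p-values. No member was called by edgeR, beside 9.47% and 0%, or by DESeq2, beside 13.1% and 6.31%. Reg4 rested on the GWTT pair, whose replicate 2 had an epithelial sum of 536 RPM and replicate 1 of 15.8. Replicate 1 held no reads of Reg4 or Ang4, so the calls of both in GS4T cells without replicate 2 (adjusted p = 0.00531 and 0.00929) rest on a single control at 0, with the spread taken from other groups, and no fold is given.

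**Figure D3:**
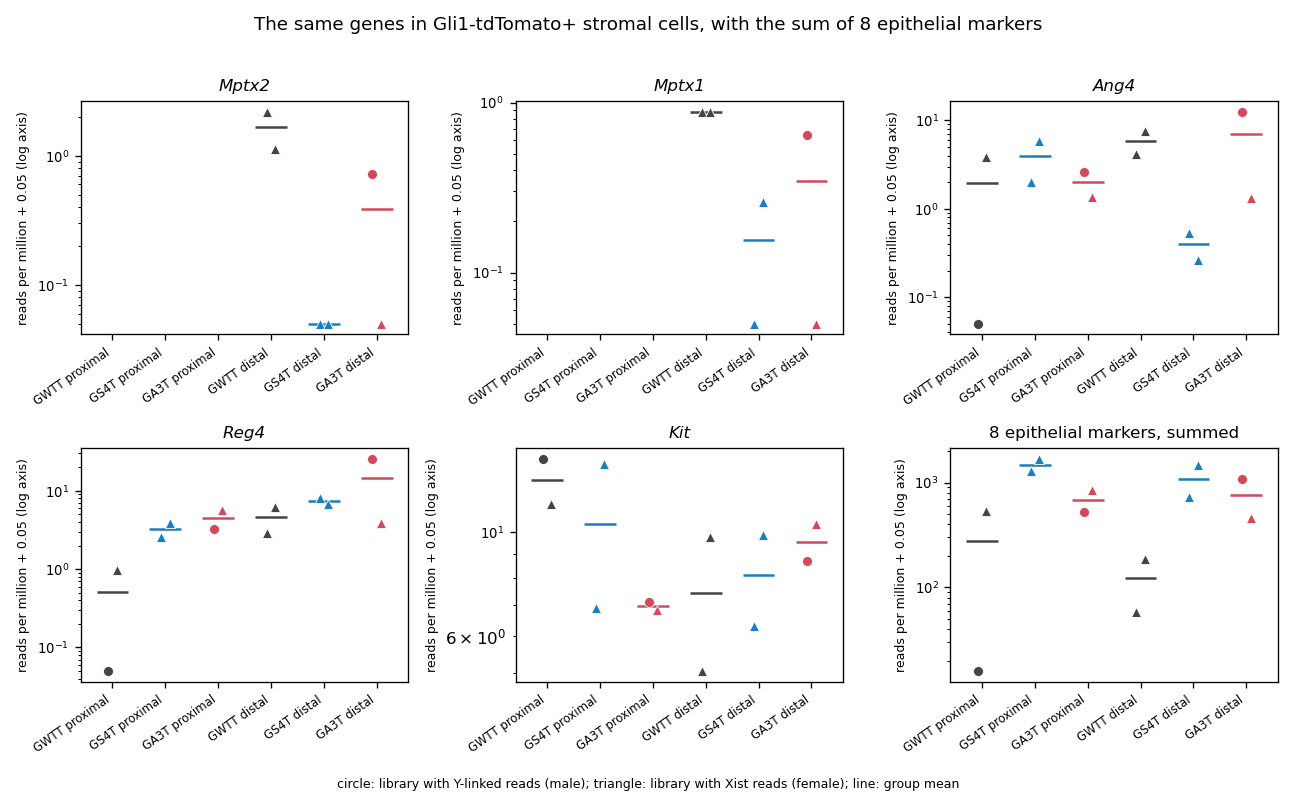
RPM plus 0.05 on a log axis for 5 genes and for the sum of 8 epithelial markers in Gli1-tdTomato+ stromal cells of GWTT, GS4T and GA3T mice; each point is a library, circles male, triangles female, and lines are group means. In distal GS4T cells Mptx2 was at 0 and Ang4 below the GWTT libraries, while the epithelial sum was above them; the pentraxins were not listed in the proximal tables.

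In colonic organoids, Reg4, Kit and Ang4 were lower after 72 h of IL1, whereas Mptx1, Lyz1 and Itln1 overlapped their controls. Reg4 fell from 5025, 9001 and 9205 to 963, 1002 and 525 normalised counts (-3.23 ± 0.32, limma adjusted p = 0.00231). Kit fell from 467, 678 and 733 to 163, 253 and 111 (-1.88 ± 0.33, adjusted p = 0.00538), and Ang4 from 1017, 1475 and 1596 to 92.7, 596 and 163 (-2.68 ± 0.60, adjusted p = 0.0122). For each of the 3 all treated libraries lay below all controls, as did those of 27.8% of all genes. These 3 of 6 members tested were called, beside 23% of all 13021 genes (12.2% as lower), so a call was common in this table. Control replicates 2 and 4 were much alike, and the fit counts them as separate libraries.

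The others kept their spread. Mptx1 was at 10.6, 1115 and 1286 in controls and 123, 962 and 395 after IL1. Lyz1 was at 23.1, 167 and 155 against 15.7, 277 and 133, and Itln1 at 13.3, 34.3 and 33.9 against 22.9, 38.9 and 25.2. For Mptx1 and Lyz1, control replicate 1 alone was far below the other 2.

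The genes that keep the crypt base were lower in the same libraries. Of 12 colon stem cell and Wnt target genes, 11 were tested after 72 h of IL1 and 7 were called lower and none higher (median -1.45), led by Smoc2 (-4.89), the stem cell receptor Lgr5 (-4.39), Cdca7 (-2.75) and Ascl2 (-2.38). Of 11 deep crypt secretory and niche factors tested, Sox9 (-2.21) and the Notch ligand Dll1 (-1.19) were called lower and none higher. Kitl, the ligand of Kit, fell with its receptor, from a mean of 1518 to 546 (-1.49 ± 0.22, adjusted p = 0.00360). In contrast, 7 of 9 tested antimicrobial products were called higher, with Lcn2 at 6.45, Duoxa2 at 4.81, Duox2 at 4.18 and Nos2 at 4.16, and 6 of 8 colonocyte genes were called higher, led by Saa1 (4.48) and Aqp8 (4.11). Of the Paneth cell products, 5 were tested and Pnliprp2 rose (2.03). Among the goblet cell products Retnlb fell (-4.88), while Muc13 (2.03) and Best2 (2.06) rose.

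After 72 h of IL17A, Ang4 was below all controls in all 3 treated libraries, and Reg4 and Kit had 2 low libraries and 1 closer to the controls. Reg4 was at 5015, 8950 and 9186 in controls and 1002, 5922 and 600 after IL17A (-2.28 ± 0.79, limma adjusted p = 0.0866). Kit was at 466, 674 and 731 against 186, 510 and 84.4 (-1.61 ± 0.61, adjusted p = 0.102), and Ang4 at 1015, 1466 and 1593 against 63.8, 780 and 90.7 (-3.0 ± 0.87, adjusted p = 0.0629). That library was IL17A replicate 2 for both Reg4 and Kit. Only Ang4 had groups that did not overlap, beside 23.6% of all genes, and no member of 6 was called, beside 7.94% of 13071 genes (3 members passed at an unadjusted p under 0.05 and a fold of at least 2, beside 20.6%, and edgeR and DESeq2 called none, beside 6.65% and 17.7%).

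All 3 IL17A libraries had high levels of antimicrobial genes. Duox2, an NADPH oxidase of the mucosa, lay at 23228 to 32399 in all 3 treated libraries against 809 to 884 in controls, and 7 of 9 tested antimicrobial products were called higher. The stem cell gene Smoc2 was at 686 in replicate 2 and at 172 and 22.7 in the others, against 1909 to 2265 in controls. Without IL17A replicate 2, the log2 fold changes were -4.11 for Ang4, -3.26 for Reg4 and -2.28 for Kit, and all 3 were called by limma. How many of all genes were called in that fit was not counted, so nothing is read from these calls. None of 11 stem cell and Wnt target genes was called by limma with all libraries (median -0.75; 1 higher and 2 lower by DESeq2), and of the deep crypt niche factors Dll1 was (-1.32).

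**Figure D4:**
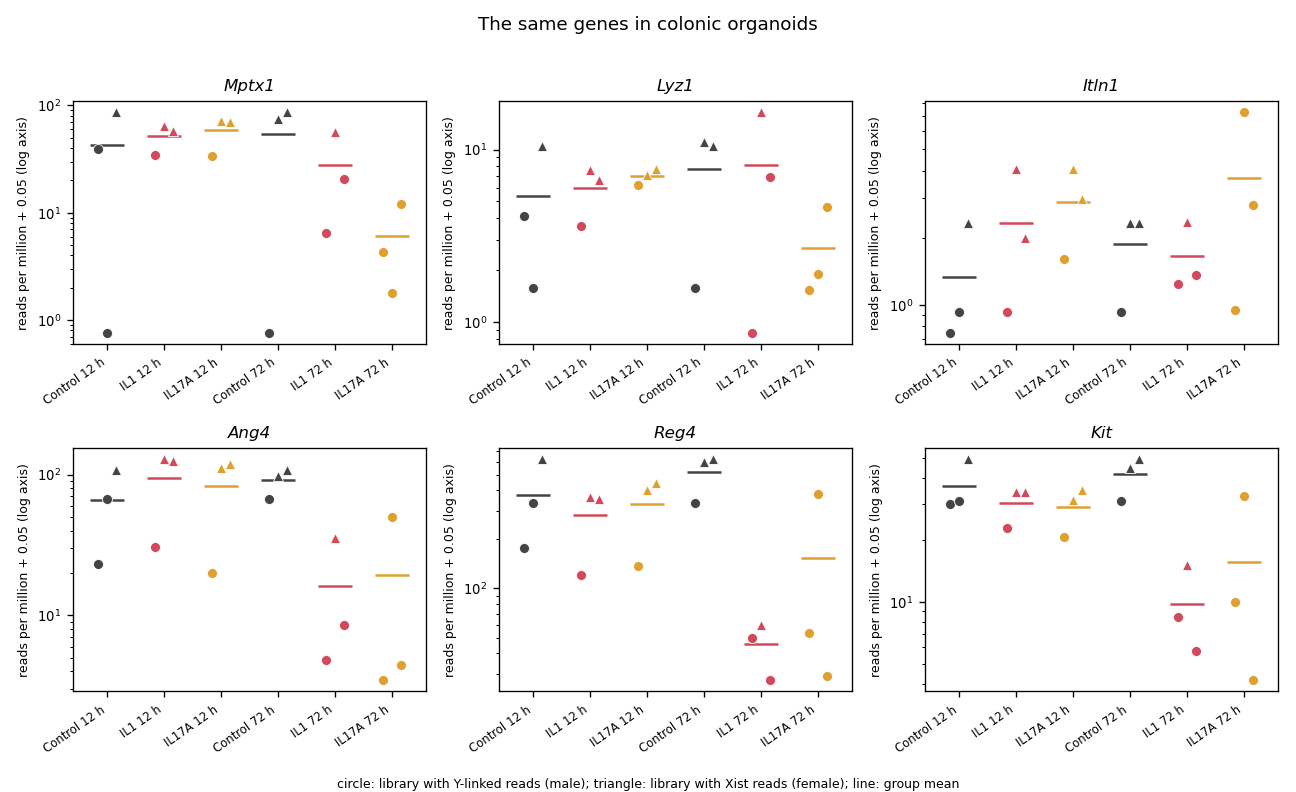
RPM plus 0.05 on a log axis for 6 genes in colonic organoids, control and treated with IL1 or IL17A for 12 or 72 h; each point is a library, circles male, triangles female, and lines are group means. Reg4, Kit and Ang4 lay below all 72 h controls after 72 h of IL1, 1 IL17A library stayed near the controls at 72 h, and the triangles lie highest for Mptx1.

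At 12 h the groups overlapped for every member. Reg4 was at 2869, 5300 and 9595 in controls and 1990, 5949 and 5782 after IL1, and at 3012, 5554 and 10046 against 2404, 6852 and 7598 in the IL17A table. Kit ran from 485 to 764 in controls and 375 to 555 after IL1, and Ang4 from 372 to 1663 and 505 to 2095. Compared with the control of the same number, Reg4 and Kit were nonetheless lower in both treated libraries that share one, although the labels do not pair them. Kit was at 30.0 RPM in control replicate 1 and 22.7 and 20.5 in replicate 1 of IL1 and IL17A, and at 49.4 against 34.0 and 34.8 in replicate 4. Reg4 was at 177 RPM against 121 and 137 in replicate 1 and at 621 against 356 and 444 in replicate 4, and Ang4 had no common direction. All 6 members overlapped in both tables, where 4.21% of all genes lay lower and 5.31% higher without overlap after IL1, and 5.01% and 5.91% after IL17A. None was called, beside 0.0542% of all genes for IL1 and 0.0385% for IL17A. No member passed at an unadjusted p under 0.05 and a fold of at least 2 in limma either, beside 0.922% and 1.08%. No member was called by edgeR, beside 0.0155% and 0.0308%, or by DESeq2, beside 0.333% and 0.393%.

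The fold changes after IL1 differed between the times for the same 3 genes. The log2 fold change at 72 h minus that at 12 h was -2.86 ± 0.71 for Reg4 (limma adjusted p = 0.0165), -1.66 ± 0.44 for Kit (adjusted p = 0.0200) and -3.24 ± 1.05 for Ang4 (adjusted p = 0.0425, and 0.0592 by edgeR), beside 17.4% of all genes called. Both times share 2 control libraries, which this fit counts in each. With those left out the differences were -4.01, -2.03 and -4.61 with adjusted p of 0.111, 0.129 and 0.128, and none was called. For IL17A no member was called for a difference between times, beside 0.0384% of all genes. All 3 were without IL17A 72 h replicate 2 (Reg4 -3.12, Kit -1.98 and Ang4 -4.38). The share of all genes called in that fit was not counted, so nothing is read from these calls.

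The Mptx1 level of an organoid library differed by its sex, which was spread unevenly over treatments and times. Over the 16 different libraries, Mptx1 ran from 57.1 to 86.7 RPM (median 70.4) in the 7 female libraries and from 0.705 to 39.6 (median 11.9) in the 9 male ones, with no overlap. The female libraries include the much alike pairs named above, so the 7 may hold fewer independent sources. Lyz1 ran from 6.60 to 16.4 against 0.812 to 6.88, and Ang4 from 35.4 to 129 against 3.40 to 67.4, both with overlap. The sex of the library and the mouse the organoids came from cannot be told apart. The groups were unevenly made up: all 3 IL17A 72 h libraries were male, against 1 of 3 controls. IL1 72 h replicates 1 and 3 were male too, and Mptx1 ran from 1.74 to 20.5 RPM in these male cytokine libraries. At 12 h, the male libraries of replicate 1, control and treated, were at 33.9 to 39.6, and male control replicate 2 at 0.705. The male median of 11.9 was that of an IL17A 72 h library. The part of treatment in the difference by sex was not tested. For Mptx1 after 72 h of IL17A (10.6, 1108 and 1284 in controls, 80.6, 27.3 and 246 treated) the log2 fold change was -1.62 (limma adjusted p = 0.531). With sex as a block it was 2.83, but that fit sets the treated libraries against the 1 male control, at 10.6. No direction can be given.

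The genes whose patterns were most like those of the members are given as a description, by Pearson's r of log2(RPM + 1). Over the 12 goblet cell libraries, which share genotypes and segments, these were Scin (0.967), Cdc25b (0.960) and Fcgbp (0.943) for Mptx1, and Gal3st2c (0.969), St6galnac4 (0.963) and Cnnm4 (0.954) for Reg4. They were Cpeb2 (0.974), Lonp2 (0.969) and Cdk6 (0.968) for Kit, Zfp952 (0.935), Snhg18 (0.917) and Dio1 (0.913) for Ang4, and Plekhb2 (0.929), Ptpn9 (0.866) and Ddx58 (0.859) for Itln1. Fcgbp is a mucus protein of goblet cells and Scin an actin-severing protein. Between the members themselves, r was 0.854 for Mptx1 with Reg4 and 0.762 for Itln1 with Kit.

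Over the 18 organoid libraries, 2 of the controls entering at both times, Reg4 and Kit ran together (r = 0.968), as did Ang4 with Reg4 (0.913) and with Kit (0.903), whereas Mptx1 ran with Lyz1 (0.870) and not with Reg4 (0.251). The nearest genes were Cdca4 (0.990), Srek1 (0.988) and Senp1 (0.984) for Reg4, Atm (0.990), Ice1 (0.989) and Mir17hg (0.986) for Kit, and Pbrm1 (0.987), Krcc1 (0.981) and Kmt5b (0.981) for Ang4. For Mptx1 they were Nxpe2 (0.983), Hoxd13 (0.966) and St6galnac6 (0.966), for Lyz1 Clu (0.944), Ms4a12 (0.941) and S100a6 (0.938), and for Itln1 Atp2c1 (0.858), Muc4 (0.855) and Nlrc4 (0.818). Libraries of 1 line and 1 time share their source, so these values carry no test.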

How the data were processed

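RNA from sorted cells and organoids was sequenced by the authors, who mapped the reads uniquely to mm10 with STAR (version 2.5.3) and normalised them with DESeq2 (version 1.28.1), per the labels. The deposited values are a normalised signal, gene counts divided by a size factor per library, scaled separately in each of the 12 tables. The strand setting and the counting tool are not given in the sources used here. Every value lay within 0.1 of a whole read once the size of 1 read in its library was found, so whole reads were recovered and scaled to 1000000 (RPM), totalling 14221322 to 23686940 a library. The 4 rows without a usable gene name in each GS4M2 table, up to 28.2% of the values of a library, stayed out of totals and tests.

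Each table was fitted by itself with limma (3.58.1, R 4.3.3) with trend on log2(value + 1), for genes with a mean of at least 10, and Benjamini-Hochberg adjusted over all of them. A call is an adjusted p under 0.05 and a fold of at least 2, so fold changes are on the log2(value + 1) scale and understate those of low genes. Differences between segments and between times were interaction terms over both tables. Alternatives were edgeR (4.0.16), DESeq2 (1.42.0), other pseudocounts, filters and scalings, unadjusted p-values, a block for the replicate number and each library left out. The procedure was tested on simulated data.

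The members and the gene lists (Paneth cell products, deep crypt secretory and niche factors, goblet cell products, secretory lineage transcription factors, antimicrobial products, stem cell and Wnt target genes, and markers of epithelium, stroma, macrophages, mast cells, interstitial cells of Cajal and colonocytes) were chosen with earlier results of these data known. The genes named are the members, the 3 most alike in pattern to each, and at most 4 of a list. Kitl, Smad4, Bmpr1a, Smoc2 and Duox2 in single libraries, Clps, Mmp7, Muc2 and Lyz2 were named after their values were seen. Promoter sequences are from RefSeq (GRCm38.p6), and positions from the GENCODE annotation of GRCm38. The authors' own comparisons were not used.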

Additional observations from a re-analysis of the deposited data

Results flagged for a closer look

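After IL1 the fold changes at 72 h and 12 h differed for 3 members by a test of the difference itself: Reg4 (-2.86 on the log2 scale, limma adjusted p = 0.0165), Kit (-1.66, adjusted p = 0.0200) and Ang4 (-3.24, adjusted p = 0.0425). Each was below all 72 h controls in 3 of 3 libraries at 72 h, and each lost its call without the control libraries that both times share.

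Reg4 moved in opposite directions in the proximal and distal goblet cells of GS4M2 mice, every library of a segment moving the same way. The difference of the fold changes was -1.68, and its test gave a limma adjusted p = 0.564. Between cell types of the proximal colon, Reg4 was lower in goblet cells and higher in stromal cells of both knockouts in every library, with differences of -4.72 for the Smad4 and -4.85 for the Alk3 knockout. These 2 differences between cell types were not tested, and the stromal values rest on 0 to 121 reads. In stromal cells Reg4 passed the filter on low values only through the knockout libraries, so a rise was built in. The epithelial marker sum was also higher in proximal GS4T than in GWTT libraries, and its part was not tested. The proximal GA3M2 goblet cells shaped the choice of members. Nothing is therefore read from these 2 differences.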

How the results depend on the processing

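Of 596 alternative values for 38 fold changes and differences of the members, 501 kept their direction and their side of the threshold, 71 passed it and 23 lost it. The 1 that turned was Mptx1 after 72 h of IL17A, at 2.83 with sex as a block, a fit that rests on 1 male control. Over the 4 goblet cell tables the main count of members called was 1, Mptx1 in the proximal GA3M2 comparison that shaped the choice of members, so nothing is read from it. It was 2 with a pseudocount of 10, 2 with no filter on low values, 5 by DESeq2, 11 at an unadjusted p and 0 to 11 with a library left out; it was 0 without GA3M2 proximal replicate 2, 2 without either GWTM2 proximal library, 3 without GS4M2 proximal replicate 2 or GA3M2 proximal replicate 1, 4 without GWTM2 distal replicate 2 and 11 without GWTM2 distal replicate 1. Over the stromal tables the main count of 2 became 1 with a mean of at least 50, 4 at an unadjusted p and 0 to 4 with a library left out (1 and 0 without GWTT distal replicate 1 and 2, and 4 without GWTT proximal replicate 2, which leaves a control with no reads of Reg4 or Ang4). The 2 main stromal calls, Mptx2 and Ang4 in distal GS4T cells, passed the filter only through the controls, so nothing is read from them. In the organoids 3 became 6 at an unadjusted p and 3 to 6 with a library left out, the 6 without IL17A 72 h replicate 2. The count of 0 for segment differences became 4 at an unadjusted p and 0 to 1 with a library left out, the 1 being Ang4 in GS4T without GWTT proximal replicate 2, again against a control at 0. The 3 time differences became 1 to 6 with a library left out: 1 without control 12 h replicate 1, control 72 h replicate 2 or 4, or IL1 12 h replicate 3 or 4, and 6 without IL17A 72 h replicate 2. With a library left out, the share of all genes called was not counted, so these counts are not read as particular to the members. Leaving the 10 genes of most reads out of the totals moved 9 group means of RPM by more than 1 SD.

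The replicate numbers do not pair the libraries by the labels, and the deviations of same-numbered libraries correlated from -0.19 to 0.64, with only 2 shared numbers in a table. With the replicate number as a block, 4 members were called in goblet cells (Ang4 in proximal GA3M2, Mptx1 and Reg4 in proximal GS4M2 cells added) and 1 for time differences, Reg4; the block changed no other count of calls. How many of all genes were called with the block was not counted, so nothing is read from the calls it added. The time difference of Ang4 was not called by edgeR, which left 2.

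Alternatives chosen after seeing the data gave 12 calls in goblet cells with sex as a block, which leaves 1 control library a segment, 10 in goblet cells, 4 in stromal cells and 6 in organoids by the unadjusted p of DESeq2, and 0 time differences without the shared controls. How many of all genes these alternatives called was not counted, and the cause of these changes was not tested. Groups of 2 libraries and low counts limit what can be said of the members in stromal cells.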
